A study of Homo sapiens with 6 samples.

Results

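The pentose phosphate pathway and the synthetases that draw on its ribose 5-phosphate were described through 9 genes, chosen by gene symbol: PGD, PGLS, RPIA, RPE, TKT, TALDO1, PRPS1, PRPS2 and DERA. These are 9 of the 58735 genes in the deposited expression table. RNA was sequenced from HEK293, a line of human embryonic kidney origin, with stable expression of a mutant tensin 2 (TNS2). Y483E cells expressed tensin 2 with glutamate in place of the tyrosine that this name gives, Y483F cells expressed it with phenylalanine there, and each line had 3 libraries. The series title links tensin 2 to glycolysis through GAPDH, and the comparison asks which transcripts differ between the lines that carry these forms. Both groups carry a mutant tensin 2, so no level below refers to cells without a construct. The labels do not say how many clones stand behind a line, and a difference between the lines cannot be told apart from an effect of the mutation. The replicates are labelled biological without naming separate cultures, so p-values measure the spread between these libraries.

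The pentose phosphate pathway branches from glycolysis at glucose 6-phosphate. Its oxidative branch releases NADPH, which cells use for reductive synthesis and for keeping glutathione and thioredoxin reduced, and ends at ribulose 5-phosphate. The non-oxidative branch interconverts sugar phosphates and connects ribose 5-phosphate back to fructose 6-phosphate and glyceraldehyde 3-phosphate of glycolysis. Phosphoribosyl pyrophosphate (PRPP) synthetases activate ribose 5-phosphate for the making of purine and pyrimidine nucleotides and of NAD.

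Values are FPKM, reads scaled to the listed gene length and to a library total. The libraries held between 17204498 and 23284592 reads assigned to genes. In each line the libraries carry the numbers 1, 4 and 5 (replicates 1, 2 and 3), whose meaning the labels leave out. Over the 12833 genes averaging 1 FPKM or more, log2 values of Y483F replicate 1 correlated with those of Y483E replicates 1, 2 and 3 at 0.992, 0.990 and 0.990, against 0.986 and 0.988 with Y483F replicates 2 and 3. The library labelled Y483F replicate 1 thus stood nearer to the Y483E libraries than to the others of its own line. Y483E replicate 1 in turn correlated at 0.9917 with Y483F replicate 1, against 0.9912 and 0.9897 with Y483E replicates 2 and 3. The libraries numbered 1 were thus nearest to each other. Whether the label of Y483F replicate 1 is right was not tested, nor was a part of the library number. Every mean and difference over 6 libraries takes the label as given. Differences are therefore given below with all 6 libraries and for the libraries numbered 4 and 5 alone. TNS2 was at 0.753, 1.04 and 1.05 FPKM in Y483E replicates 1, 2 and 3, against 1.07, 1.16 and 1.16 FPKM in Y483F replicates 1, 2 and 3, and construct and endogenous transcript were not told apart. Of the markers of HEK293 cells, IRS4, VIM and NEFL were at 38.0 FPKM or more in every library, while PAX2, LHX1 and NEFM were at 1.34 FPKM or less. Of the markers of other cells, PTPRC (blood) had 0 reads in all 6 libraries, which allows up to 3 reads in each, ALB (liver) had 1 to 3 reads, DCN (fibroblasts) 0 to 4 reads and COL1A1 (fibroblasts) 103 to 158 reads. IRS4 averaged 153 ± 0.980 FPKM in Y483E cells and 165 ± 8.18 FPKM in Y483F cells (SD, n = 3 each), without overlap, and VIM averaged 67.8 ± 5.03 FPKM in Y483E cells and 60.5 ± 0.902 FPKM in Y483F cells, also without overlap. LHX1 averaged 0.842 ± 0.0385 FPKM in Y483E cells and 1.11 ± 0.155 FPKM in Y483F cells, again without overlap. TNS2, like IRS4 and LHX1, was lower in every Y483E library than in every Y483F library, as were 7.37% of all genes tested. VIM was higher in every Y483E library, as were 9.72% of all genes tested. The groups overlapped for PAX2, NEFM and NEFL. The part of these genes in the differences below was not tested. In bulk RNA, fewer cells of a kind and less RNA per cell cannot be told apart.

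All 9 genes were expressed and all passed the filter of a mean of 1 FPKM. None differed between the lines past an adjusted p of 0.05 over all 6 libraries (limma on log2 of FPKM + 1, Benjamini-Hochberg over all genes tested), where 0% of the 12833 genes tested were called. At an unadjusted p under 0.05, 0 of the 9 passed, against 12.2% of all genes, edgeR on recovered reads called 0 of the 9, against 0.0438% of all genes, and DESeq2 0 of the 9, against 0.455%. The differences were small: 7 of the 9 were higher and 2 lower in Y483E cells, with a median log2 difference of 0.072, beside 0.0070 over all genes tested, of which 52.8% were higher. The 95% intervals of the 8 genes other than DERA all lay between -0.20 and 0.19 on the log2 scale. Between the libraries numbered 4 and 5 alone, edgeR called DERA, PRPS1 and TALDO1 higher in Y483E cells, where it called 7.07% of all genes higher, and limma called 0 of the 9.

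The members spanned a wide range of levels. PGD was the most abundant at 125.8 ± 5.19 FPKM over the 6 libraries, followed by PRPS1 at 81.2 ± 3.68, TALDO1 at 49.995 ± 2.34 and TKT at 43.9 ± 1.73 FPKM (SD, n = 6 each). PRPS2 at 25.0 ± 1.22 and RPIA at 22.5 ± 1.12 FPKM came next, ahead of PGLS at 13.6 ± 0.743, RPE at 11.7 ± 0.643 and DERA at 9.17 ± 1.10 FPKM. Each gene lay above the next in this order in 6 of 6 libraries. The ranges over libraries overlapped only for PRPS2, from 23.3 to 26.8 FPKM, and RPIA, from 21.5 to 24.3 FPKM. PGD had a higher level than 97.8% of the genes tested, and DERA a higher level than 60.7%. Reads behind a single value ran between 424 (DERA) and 9927 (TKT).

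**Figure D1:**
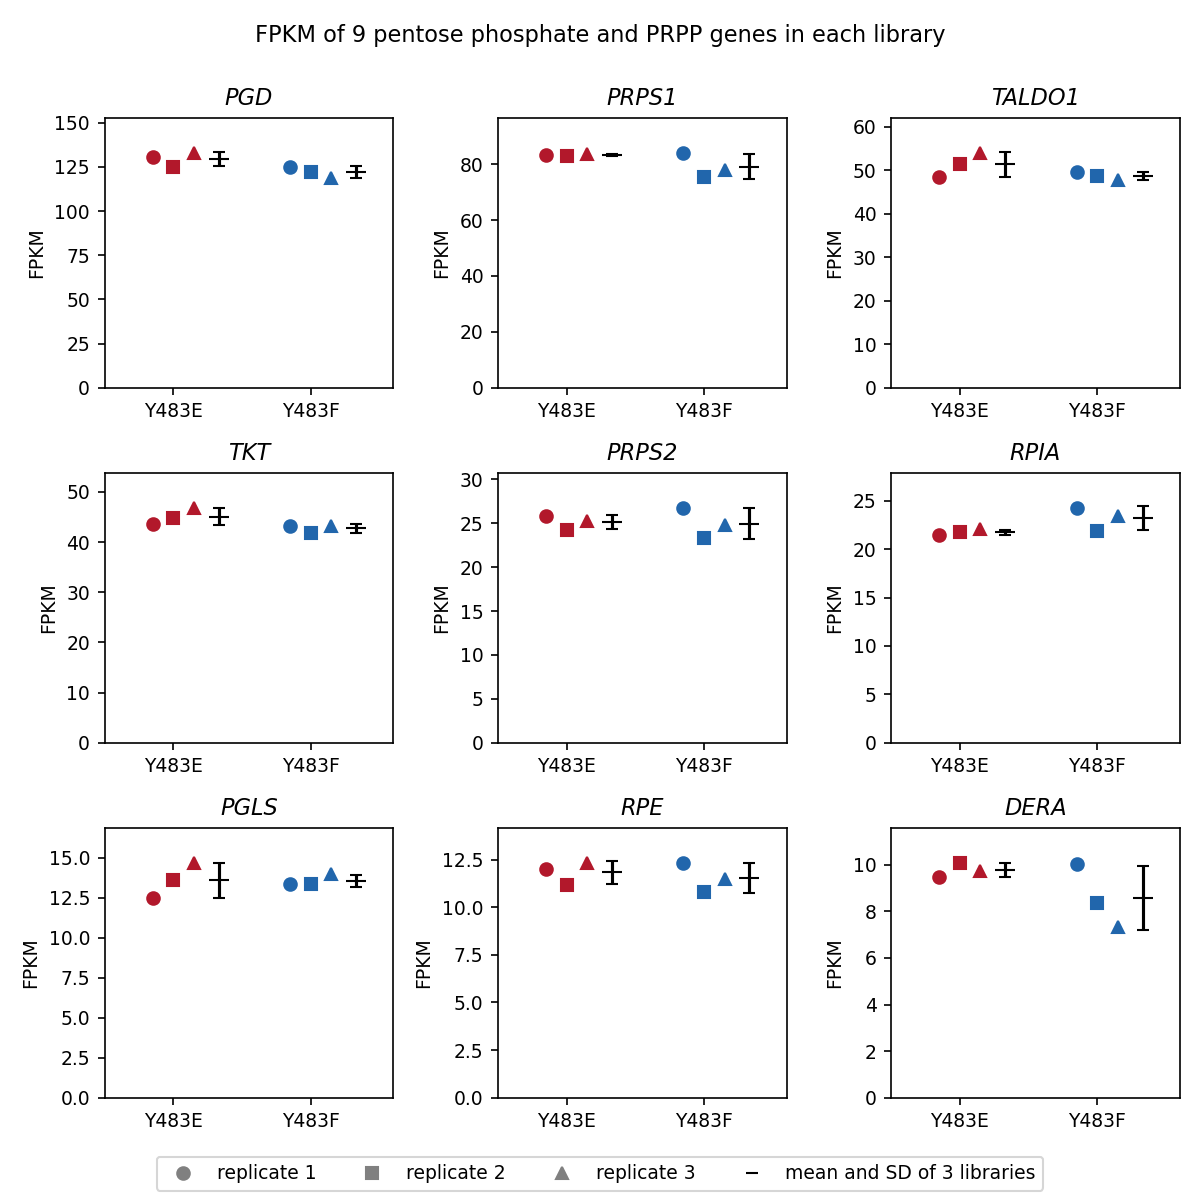
FPKM of the 9 genes, 1 panel per gene with a linear axis from 0, with Y483E libraries left of Y483F libraries, symbols for replicates 1, 2 and 3, and black bars for the mean ± SD (n = 3 each). The lowest value is DERA in Y483F replicate 3 at 7.33 FPKM and the highest is PGD in Y483E replicate 3 at 133 FPKM. DERA has the widest spread for its level, in the Y483F libraries, and the groups overlap in every panel but that of TKT.

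The order depends on the length that FPKM divides by. How the listed lengths were made was not checked. For TKT, with 14 transcripts in GENCODE 29, the listed 9507 bases are 3.16 times the 3010 bases of a principal transcript there. With the lengths of principal transcripts, a choice made after the data had been seen, TKT was at 139 ± 5.45 FPKM and moved from place 4 to place 2, behind PGD at 198 ± 8.16 FPKM. PRPS1 moved from place 2 to place 4, at 99.0 ± 4.48 FPKM, below TALDO1 at 112 ± 5.21 FPKM. PGLS was at 37.6 ± 2.06 FPKM and moved from place 7 to place 5, above PRPS2 at 27.5 ± 1.34 FPKM (SD, n = 6 each). DERA stayed in the last place at 15.3 ± 1.84 FPKM, beside RPE at 16.0 ± 0.882 FPKM. This rescaling treats all reads as coming from 1 transcript and leaves every difference between the lines as it was.

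**Figure D2:**
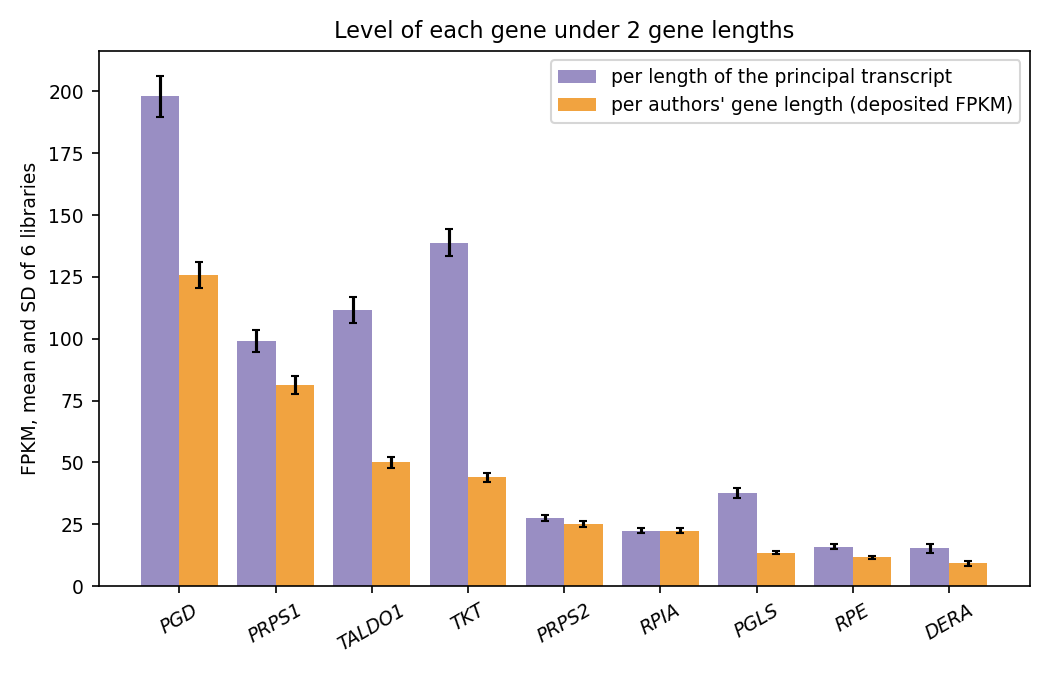
Mean FPKM over the 6 libraries of each gene (bars from 0, error bars ± SD), scaled to the length of a principal transcript on the left and to the listed gene length on the right. TKT and PGLS move most, by factors of 3.16 and 2.77, while RPIA, with 1 transcript, does not move.

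The promoters of the 9 genes were read from RefSeq (GRCh38.p14) as the 250 bases before and 50 after the start site, and all 9 were found. The sequences of TALDO1, PRPS1 and DERA are shown because edgeR called these genes in the libraries numbered 4 and 5, and that of PRPS2 because it is the close paralog of PRPS1. Capitals mark CCAAT boxes (CCAAT, read on either strand, thus also ATTGG) and matches to the core of the antioxidant response element (TGANNNNGC, either strand), the element bound by NRF2. The windows are chr11:747214-747513 (plus strand) for TALDO1, chrX:107628260-107628559 (plus strand) for PRPS1, chr12:15911082-15911381 (plus strand) for DERA and chrX:12791162-12791461 (plus strand) for PRPS2.
TALDO1: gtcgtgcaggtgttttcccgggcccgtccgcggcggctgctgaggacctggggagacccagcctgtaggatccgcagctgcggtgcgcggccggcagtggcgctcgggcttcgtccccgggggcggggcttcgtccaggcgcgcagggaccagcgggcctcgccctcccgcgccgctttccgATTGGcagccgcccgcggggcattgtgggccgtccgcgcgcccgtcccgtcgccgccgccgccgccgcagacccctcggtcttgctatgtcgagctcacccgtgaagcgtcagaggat
PRPS1: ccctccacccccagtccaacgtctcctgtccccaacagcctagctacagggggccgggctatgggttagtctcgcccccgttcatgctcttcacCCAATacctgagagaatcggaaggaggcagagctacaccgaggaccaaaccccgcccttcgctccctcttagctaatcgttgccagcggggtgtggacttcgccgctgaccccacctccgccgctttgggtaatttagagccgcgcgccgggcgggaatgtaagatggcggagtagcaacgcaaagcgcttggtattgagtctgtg
DERA: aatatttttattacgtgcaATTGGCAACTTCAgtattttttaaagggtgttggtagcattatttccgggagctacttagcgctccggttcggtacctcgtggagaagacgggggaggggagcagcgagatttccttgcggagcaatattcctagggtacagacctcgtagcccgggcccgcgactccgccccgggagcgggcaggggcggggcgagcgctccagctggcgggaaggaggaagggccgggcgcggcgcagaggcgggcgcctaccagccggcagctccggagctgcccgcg
PRPS2: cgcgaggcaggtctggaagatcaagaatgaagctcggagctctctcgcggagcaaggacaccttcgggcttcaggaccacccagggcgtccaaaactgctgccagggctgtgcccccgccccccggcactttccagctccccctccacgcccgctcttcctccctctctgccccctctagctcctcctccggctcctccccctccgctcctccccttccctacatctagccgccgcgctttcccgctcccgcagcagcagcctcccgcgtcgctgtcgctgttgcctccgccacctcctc
The CCAAT box lay 68 bases before the start site in TALDO1, 156 before it in PRPS1 and at position -231 in DERA, where it overlaps the match to the antioxidant core by 1 base. PRPS2 held neither in this window.

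A CCAAT box was present in 7 of the 9 promoters, all but PGLS and PRPS2, and in 34.6% of all 35116 RefSeq promoters of the same length. The antioxidant core was present in 4 of the 9 (PGD, PGLS, RPE and DERA), beside 41.8% of all promoters. A GC box (GGGCGG, either strand) was in 9 of 9, beside 45%. The E-box CACGTG, the C/EBP-ATF core TGATGNAA and the TATA box TATAAA, each searched on both strands, were in 0 of the 9, beside 7.3%, 3.6% and 11.5% of all promoters. The 9 windows had a GC content between 61% (PRPS1) and 75.0% (TALDO1), beside a median of 58.7% over all promoters. A match is a description of the letters and not a bound site.

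In the oxidative branch, PGLS hydrolyses 6-phosphogluconolactone and PGD then converts 6-phosphogluconate to ribulose 5-phosphate with release of NADPH. PGD (ENSG00000142657, chromosome 1, 10398592 to 10420144, plus strand) was at 130.3, 125 and 133 FPKM in Y483E replicates 1, 2 and 3, against 125, 122 and 119 FPKM in Y483F replicates 1, 2 and 3. The lowest Y483E library lay just under the highest Y483F library, so the groups overlapped. Means were 129.5 ± 3.97 FPKM in Y483E cells and 122 ± 3.16 FPKM in Y483F cells (SD, n = 3 each), a log2 difference of 0.08 ± 0.043 (SE) with a 95% interval of -0.02 to 0.19 (limma, adjusted p = 0.474). PGLS (ENSG00000130313, chromosome 19, 17511629 to 17521288, plus strand) was at 12.5, 13.6 and 14.7 FPKM in Y483E replicates 1, 2 and 3, against 13.3, 13.4 and 14.0 FPKM in Y483F replicates 1, 2 and 3. Its Y483E libraries lay on both sides of the Y483F libraries. The means were 13.6 ± 1.11 FPKM in Y483E cells and 13.6 ± 0.380 FPKM in Y483F cells (SD, n = 3 each), and the log2 difference had a 95% interval of -0.15 to 0.15 (limma, adjusted p = 0.995).

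Ribulose 5-phosphate has a pair of fates at the head of the non-oxidative branch: RPIA isomerises it to ribose 5-phosphate and RPE epimerises it to xylulose 5-phosphate. RPIA (ENSG00000153574, chromosome 2, 88691644 to 88750935, plus strand) was at 21.5, 21.7 and 22.1 FPKM in Y483E replicates 1, 2 and 3, against 24.3, 21.9 and 23.5 FPKM in Y483F replicates 1, 2 and 3. It had the most negative difference of the members, -0.09 ± 0.049 on the log2 scale (SE, 95% interval -0.20 to 0.03, limma, adjusted p = 0.50), with 1 Y483E library above the lowest Y483F library. Means were 21.8 ± 0.270 FPKM in Y483E cells and 23.2 ± 1.23 FPKM in Y483F cells (SD, n = 3 each). RPE (ENSG00000197713, chromosome 2, 210002565 to 210022259, plus strand) was at 12.02, 11.1 and 12.3 FPKM in Y483E replicates 1, 2 and 3, against 12.3, 10.8 and 11.5 FPKM in Y483F replicates 1, 2 and 3. The Y483E range lay inside the Y483F range, and the log2 difference was 0.03 ± 0.062 (SE, limma, adjusted p = 0.856). The gene overlaps KANSL1L on the opposite strand, which had 131 to 161 reads per library, and whether the libraries keep strand is not known.

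The remaining steps of the non-oxidative branch fall to TKT and TALDO1, which move ketol and dihydroxyacetone units between sugar phosphates. TKT (ENSG00000163931, chromosome 3, 53224707 to 53256052, minus strand) was at 43.6, 44.8 and 46.9 FPKM in Y483E replicates 1, 2 and 3, against 43.3, 41.8 and 43.3 FPKM in Y483F replicates 1, 2 and 3. It was the only 1 of the 9 genes in which every Y483E library lay above every Y483F library, a pattern seen in 9.72% of all genes tested, and in 0 of the 9 did every Y483E library lie below, beside 7.37% of all genes. The gap between the lowest Y483E and the highest Y483F library was small, and the means were 45.1 ± 1.63 FPKM in Y483E cells and 42.8 ± 0.871 FPKM in Y483F cells (SD, n = 3 each). The log2 difference was 0.07 ± 0.043 (SE, limma, adjusted p = 0.513), and the two-sided exact permutation p of 0.1 is the smallest that 3 libraries against 3 can give. TALDO1 (ENSG00000177156, chromosome 11, 747329 to 765024, plus strand) was at 48.5, 51.4 and 54.0 FPKM in Y483E replicates 1, 2 and 3, against 49.6, 48.7 and 47.8 FPKM in Y483F replicates 1, 2 and 3. Both higher Y483E libraries stood above all Y483F libraries, while Y483E replicate 1 lay among them. The log2 difference was 0.07 ± 0.049 (SE, limma, adjusted p = 0.584). With the listed lengths, the level of TALDO1 over that of TKT was close in the lines, with a mean ratio of FPKM of 1.14 ± 0.0231 in Y483E cells and 1.14 ± 0.0315 in Y483F cells (SD, n = 3 each). With the lengths of principal transcripts TALDO1 lies below TKT in place of above it.

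PRPP synthetase is encoded by the X-linked paralogs PRPS1 and PRPS2, of which PRPS1 was the more abundant. PRPS1 (ENSG00000147224, chromosome X, 107628424 to 107651026, plus strand) was at 83.3, 83.1 and 83.6 FPKM in Y483E replicates 1, 2 and 3, against 84.1, 75.3 and 77.9 FPKM in Y483F replicates 1, 2 and 3. The Y483E libraries were almost equal, and Y483F replicate 1 lay above all of them while the other Y483F libraries lay below. The log2 difference was 0.08 ± 0.049 (SE, limma, adjusted p = 0.568). PRPS2 (ENSG00000101911, chromosome X, 12791355 to 12824222, plus strand) was at 25.9, 24.3 and 25.3 FPKM in Y483E replicates 1, 2 and 3, against 26.8, 23.3 and 24.8 FPKM in Y483F replicates 1, 2 and 3. Its highest and lowest values both belonged to Y483F libraries, and the log2 difference was 0.01 ± 0.058 (SE, limma, adjusted p = 0.948). The ratio of PRPS1 to PRPS2 in FPKM was 3.22, 3.42 and 3.31 in Y483E replicates 1, 2 and 3, against 3.14, 3.23 and 3.15 in Y483F replicates 1, 2 and 3, so the groups overlapped by a narrow margin. Reads of close copies can be shared. Of the 17 pseudogene rows matched to the members by name or description, 15 had 0 reads in every library. AL035698.1 is among the rows of both PRPS1 and PRPS2. PRPS1P2 had the most, 30 reads in Y483F replicate 1. How reads that match more than 1 copy were counted is not known, so these counts do not show whether reads were shared.

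DERA, which splits deoxyribose 5-phosphate into glyceraldehyde 3-phosphate and acetaldehyde, was the least abundant and the most variable member. DERA (ENSG00000023697, chromosome 12, 15911172 to 16037282, plus strand) was at 9.50, 10.1 and 9.73 FPKM in Y483E replicates 1, 2 and 3, against 10.04, 8.37 and 7.33 FPKM in Y483F replicates 1, 2 and 3. These values stood on at most 669 reads in a Y483E library and on 489, 428 and 424 reads in Y483F replicates 1, 2 and 3. Y483F replicate 1 lay among the Y483E libraries and the other Y483F libraries lay below all of them. Means were 9.77 ± 0.298 FPKM in Y483E cells and 8.58 ± 1.37 FPKM in Y483F cells (SD, n = 3 each). The log2 difference was 0.18 ± 0.099 (SE, 95% interval -0.05 to 0.41, limma, adjusted p = 0.50). Leaving out Y483F replicate 1 gave a log2 difference of 0.29 and leaving out Y483F replicate 3 gave 0.083, neither past the threshold. Array weights, which let limma count deviating libraries less, gave 0.34 with an adjusted p of 0.0278, in a fit that called 14.7% of all genes. Over the alternatives with a test, its adjusted p ran between 0.0176 and 0.840.

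**Figure D3:**
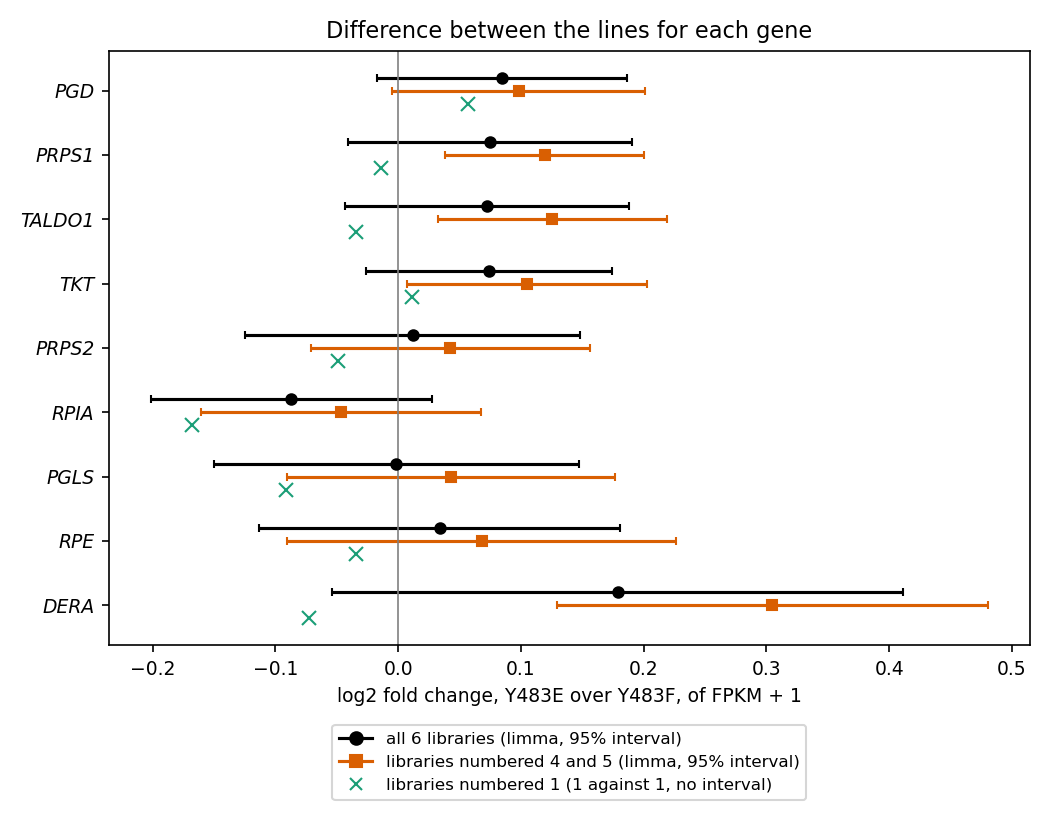
Log2 difference between the lines, Y483E over Y483F, for each gene with 95% intervals, from limma on log2 of FPKM + 1, over all 6 libraries (circles), over the libraries numbered 4 and 5 (squares), and between the libraries numbered 1 (crosses, 1 library each, no interval). All 9 intervals over 6 libraries cross 0, while those of DERA, PRPS1, TALDO1 and TKT in the libraries numbered 4 and 5 lie above 0 before any adjustment for the number of genes tested.

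Between the libraries numbered 4 and 5, 8 of the 9 genes were higher and 1, RPIA, lower in Y483E cells. Over all genes tested by limma 54.6% were higher there. EdgeR on recovered reads called 3 of the 9 higher, where 7.07% of the 16308 genes tested were called higher, and 0 lower, where 7.98% were. The called members were DERA, with a log2 difference of 0.34 ± 0.087 (SE, adjusted p = 0.0176), PRPS1 with 0.12 ± 0.036 (adjusted p = 0.0428) and TALDO1 with 0.12 ± 0.040 (adjusted p = 0.0481). PRPS1 and TALDO1 lay close to the threshold, and TKT (0.10 ± 0.039, adjusted p = 0.0887) and PGD (0.09 ± 0.039, adjusted p = 0.123) beyond it. Limma on the same 4 libraries called 0 of the 9, beside 2.7% of all genes called higher and 3.01% called lower, with 4 of the 9 at an unadjusted p under 0.05, beside 28.2% of all genes, and an adjusted p of 0.0645 for DERA, 0.0861 for PRPS1 and 0.102 for TALDO1. These calls rest on 2 libraries in each line. The libraries numbered 1 were set apart with earlier results of these data known, and Y483F replicate 1 among them resembled the other line. Without them edgeR called 2454 genes in these 4 libraries, against 7 in all 6, and limma 733, against 0. Leaving out Y483F replicate 1 alone, limma called 0 genes, with 2844 at an unadjusted p under 0.05. Why these counts differ was not tested. Over all alternatives with a test, the adjusted p ran between 0.0428 and 0.889 for PRPS1 and between 0.0481 and 0.918 for TALDO1.

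Between the libraries numbered 1, with 1 library in each line and no test, 7 of the 9 genes were lower and 2 higher in Y483E cells. Over all genes 48.5% were higher there. The log2 difference was 0.06 for PGD and 0.01 for TKT, and it was -0.17 for RPIA, -0.09 for PGLS and -0.07 for DERA. The members' median was -0.035, beside 0.098 in limma between the libraries numbered 4 and 5. The interaction of line and library number compares the difference in the libraries numbered 1 with that in the libraries numbered 4 and 5. It was negative for all 9 genes, while it was positive for 44.6% of all genes (limma). The members' median interaction was -0.12 on the log2 scale, beside -0.023 over all genes. None of the 9 passed the adjusted threshold for this interaction in limma, where 0.0623% of all genes did, nor in edgeR, where 2.01% did, and at an unadjusted p under 0.05 there was 1 member in limma, beside 15.9% of all genes, and 2 in edgeR, beside 15.1%. DERA had the largest interaction, -0.38 ± 0.119 in limma (SE, adjusted p = 0.263) and -0.42 in edgeR (adjusted p = 0.170). The differences of the 3 called genes between the libraries numbered 4 and 5 are therefore not shown to differ from those in the libraries numbered 1, whose lone library per line is assumed to vary like the others.

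**Figure D4:**
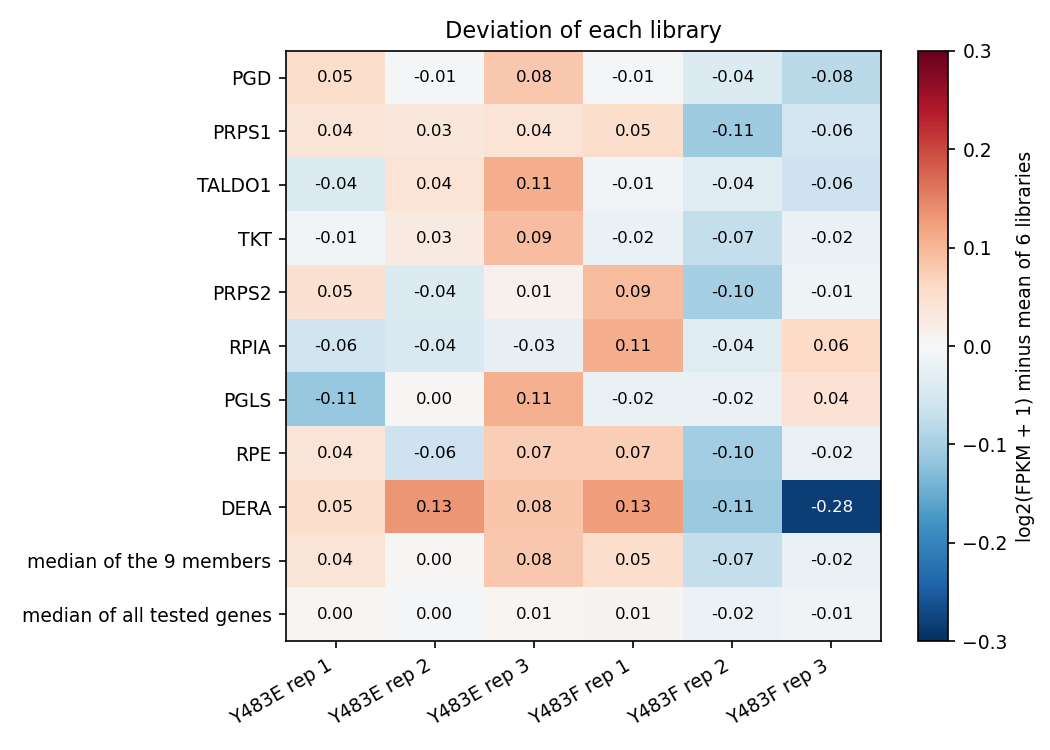
Deviation of each gene in each library from its mean over the 6 libraries, on the scale of log2 of FPKM + 1, with Y483E libraries left of Y483F libraries. The members' median is positive in Y483E replicates 1, 2 and 3 (0.038, 0.0037 and 0.081) and in Y483F replicate 1 (0.052), and lowest in Y483F replicate 2 (-0.070), and the single lowest value is DERA in Y483F replicate 3 (-0.28).

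Seen by library, 4 of the 9 genes (PGD, PGLS, TKT and TALDO1) had their highest value in Y483E replicate 3, and 4 (RPIA, RPE, PRPS1 and PRPS2) in Y483F replicate 1. DERA was highest in Y483E replicate 2. Some maxima were near ties, as for RPE, at 12.33 FPKM in both Y483E replicate 3 and Y483F replicate 1. The lowest value was in Y483F replicate 2 for 4 genes and in Y483F replicate 3 for 3, while Y483E replicate 1 held the lowest value of RPIA and PGLS. The ratio of RPIA to TKT in FPKM, chosen after its values were seen, was 0.493, 0.486 and 0.471 in Y483E replicates 1, 2 and 3, against 0.561, 0.524 and 0.542 in Y483F replicates 1, 2 and 3. The groups did not overlap in this ratio, nor in those of RPIA to PGD and of RPIA to RPE. They overlapped in the ratios of PRPS1 to PRPS2, TALDO1 to TKT, PGD to PGLS and PRPS1 to PGD. The ratio of RPIA to TKT joins a gene that was lower in Y483E cells to one that was higher. Its exact permutation p was 0.1, the smallest that 3 libraries against 3 can give. As the ratio was chosen after its values were seen, this p is not read as a test.

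The spread between libraries of a line differed among the members. On the scale of log2 of FPKM + 1, the SD within a line was 0.041 for both PGD and TKT and at most 0.082 (PGLS) for the 8 genes other than DERA, beside a median of 0.085 over all genes tested. For TKT, 15.5% of genes within 0.5 log2 units of its level had a lower SD, and for PGD 20.8%, followed by RPIA with 29.1%, TALDO1 with 38.1% and PRPS1 with 44.6%. RPE (53.3%), PRPS2 (55.4%) and PGLS (57.1%) had an SD slightly above the median of the genes at their level. DERA had an SD of 0.147, above that of 87.6% of the genes at its level. Across all 6 libraries the coefficient of variation of FPKM was 12% for DERA and between 3.93% (TKT) and 5.51% (RPE) for the others.

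The named paralogs of the members had few or no reads assigned, with the exception of the genes of the synthetase-associated proteins. As how reads that match more than 1 copy were counted is not known, low counts do not show that a paralog was not transcribed. TKTL1 had 2 to 9 reads per library, TKTL2 and RPEL1 had 0 to 4 each, and PRPS1L1 had 0 reads in all 6, which allows up to 3 in each. PRPSAP1, which binds the PRPP synthetases, averaged 7.13 ± 0.303 FPKM in Y483E cells and 7.07 ± 0.169 FPKM in Y483F cells, and PRPSAP2, its paralog, 13.4 ± 0.267 FPKM in Y483E cells and 14.6 ± 1.44 FPKM in Y483F cells (SD, n = 3 each). Among genes of side branches, PGM2, which acts on pentose and hexose phosphates, averaged 18.5 ± 0.845 FPKM in Y483E cells and 18.2 ± 1.64 FPKM in Y483F cells. Neither line stood above the other beyond the spread for PRPSAP1, PRPSAP2 or PGM2. TIGAR, a phosphatase that lowers fructose 2,6-bisphosphate, was named after its values were seen: every Y483E library lay below every Y483F library, at 0.938 ± 0.0758 FPKM in Y483E cells and 1.24 ± 0.0402 FPKM in Y483F cells (SD, n = 3 each; limma, adjusted p = 0.363).

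Genes on either side of the pathway were followed in 6 lists with 44 genes, of which 35 were tested. Over all 6 libraries 0 of the 35 were called by limma (0% of all genes) and 6 had an unadjusted p under 0.05, beside 12.2% of all genes. EdgeR called 0 of 39 tested (0.0438% of all genes), with 7 at an unadjusted p under 0.05, beside 13.4% of all genes. In purine synthesis, which consumes PRPP, 1 of 6 genes was higher and 5 lower in Y483E cells, with a median log2 difference of -0.05. GART averaged 57.1 ± 1.09 FPKM in Y483E cells and 62.4 ± 3.10 FPKM in Y483F cells, and PAICS 63.1 ± 1.85 FPKM in Y483E cells and 62.3 ± 5.24 FPKM in Y483F cells (SD, n = 3 each). In pyrimidine synthesis 1 of 3 was higher and 2 lower, with UMPS at 9.69 ± 0.481 FPKM in Y483E cells and 10.7 ± 0.0884 FPKM in Y483F cells, and CAD at 26.2 ± 0.928 FPKM in Y483E cells and 27.3 ± 2.37 FPKM in Y483F cells. GART and UMPS had every Y483E library below every Y483F library, as did 7.37% of all genes, at an adjusted p of 0.365 for GART and 0.363 for UMPS (limma). DHODH, also of pyrimidine synthesis, had every Y483E library above every Y483F library, as did 9.72% of all genes, at 3.79 ± 0.129 FPKM in Y483E cells and 3.59 ± 0.0501 FPKM in Y483F cells (SD, n = 3 each; limma, adjusted p = 0.674).

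Of the phosphoribosyltransferases, which use PRPP to salvage bases and to make NAD, 3 of 5 were higher and 2 lower in Y483E cells. APRT, the adenine salvage enzyme, averaged 201 ± 4.79 FPKM in Y483E cells and 184 ± 12.6 FPKM in Y483F cells, with every Y483E library above every Y483F library (limma, adjusted p = 0.413). HPRT1 averaged 109 ± 2.36 FPKM in Y483E cells and 111 ± 8.68 FPKM in Y483F cells (SD, n = 3 each). The other sources of NADPH were higher in Y483E cells in 6 of 6 genes tested, with a median log2 difference of 0.07. Of these 6, 5 were lower in the Y483E library between the libraries numbered 1, and over 6 libraries edgeR had 6 of 8 higher and 2 lower. ME3, ALDH1L1 and ALDH1L2, which did not pass the filter, had lower means in Y483E cells, on at most 140 reads per library. MTHFD2, the mitochondrial folate dehydrogenase, averaged 42.9 ± 4.90 FPKM in Y483E cells and 34.5 ± 5.65 FPKM in Y483F cells (log2 difference 0.31 ± 0.125, SE, limma, adjusted p = 0.384). MTHFD1, its cytosolic relative, averaged 32.3 ± 0.735 FPKM in Y483E cells and 31.8 ± 0.596 FPKM in Y483F cells. Of the NRF2 and redox genes 3 of 9 were higher and 6 lower, with GSR, the glutathione reductase, at 53.5 ± 1.96 FPKM in Y483E cells and 54.3 ± 3.51 FPKM in Y483F cells. TXNRD1, the thioredoxin reductase, averaged 43.4 ± 3.56 FPKM in Y483E cells and 44.5 ± 4.62 FPKM in Y483F cells (SD, n = 3 each). SRXN1, named after its values were seen, averaged 4.20 ± 0.113 FPKM in Y483E cells and 4.84 ± 0.355 FPKM in Y483F cells. Every Y483E library lay below every Y483F library for SRXN1, as for 7.37% of all genes. In this list 2 of 9 genes had an unadjusted p under 0.05 (limma), beside 12.2% of all genes, and 0 were called.

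**Figure D5:**
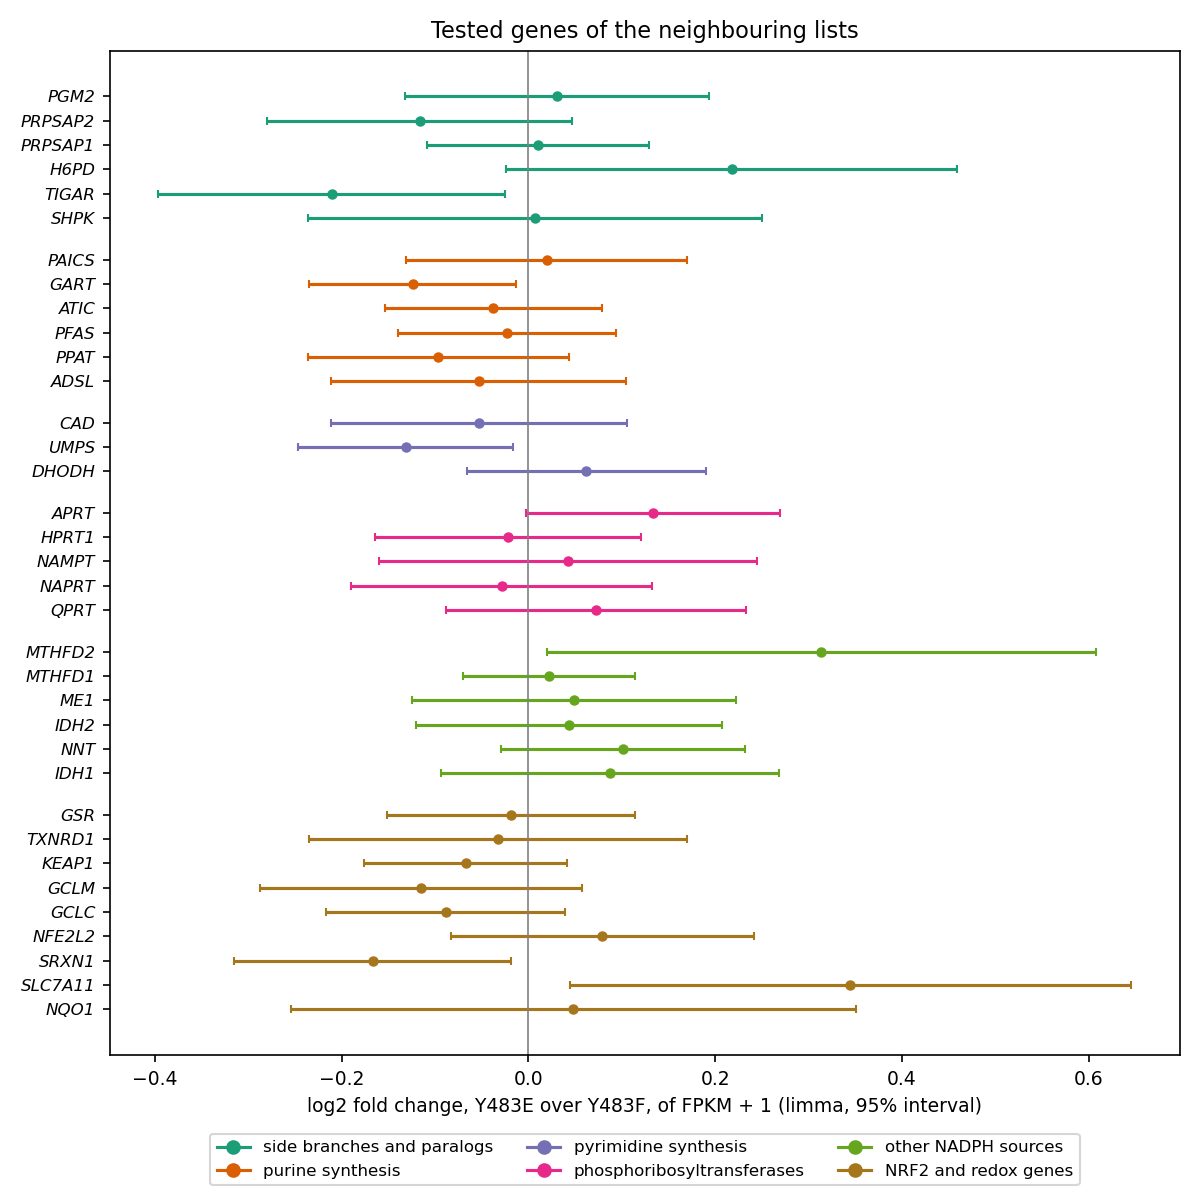
Log2 difference between the lines, Y483E over Y483F, of FPKM + 1 for the 35 tested genes of the 6 neighbouring lists, with 95% intervals (limma, 6 libraries) and colours for the lists. The intervals of 6 genes do not cross 0, beside 12.2% of all genes tested, and 0 of the 35 passed the adjusted threshold.

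Between the libraries numbered 4 and 5, edgeR called 6 of the 39 tested neighbours higher in Y483E cells (7.07% of all genes) and 1 lower (7.98%). These genes were chosen by that call, after their values were seen. The call rests on 2 libraries in each line, set apart with earlier results of these data known. In these libraries edgeR called 15% of all genes, against 0.0438% over all 6. The edgeR p-values from these libraries are therefore given as a description. MTHFD2 had a log2 difference of 0.54 (adjusted p = 9.98e-07) and the cystine transporter gene SLC7A11 one of 0.69 (adjusted p = 1.6e-05). Both were lower in the Y483E library between the libraries numbered 1, by log2 differences of -0.13 for MTHFD2 and -0.09 for SLC7A11. Over all 6 libraries SLC7A11 averaged 5.03 ± 0.872 FPKM in Y483E cells and 3.74 ± 0.559 FPKM in Y483F cells (SD, n = 3 each), with a log2 difference of 0.34 (limma, adjusted p = 0.360). H6PD, which runs the oxidative steps in the endoplasmic reticulum, was at 3.07, 4.11 and 4.25 FPKM in Y483E replicates 1, 2 and 3, against 3.12, 3.04 and 3.17 FPKM in Y483F replicates 1, 2 and 3. Its Y483E replicate 1 lay among the Y483F libraries, and the log2 difference between the libraries numbered 4 and 5 was 0.42 ± 0.071 (SE, edgeR, adjusted p = 0.00108). APRT, NNT and IDH1 were called higher by 0.16, 0.17 and 0.21 on the log2 scale, and UMPS had a log2 difference of -0.18 (edgeR, adjusted p = 0.0231). MTHFD2, SLC7A11, H6PD and APRT were also called by limma in these libraries, where limma called 0 of the 9 members.

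The authors' deposited table of their own comparison lists 1652 genes, none with an unadjusted p above 0.04999, and 0 of the 9 members are in it. DESeq2 on recovered reads also had 1652 genes at an unadjusted p under 0.05, which were 5.29% of the 31210 it tested. Of the 44 neighbouring genes 6 are listed. In the authors' deposited table the log2 fold change was 0.43 for SLC7A11 (adjusted p = 0.0603) and 0.32 for MTHFD2 (adjusted p = 0.0934). H6PD (0.29) and APRT (0.13) are also listed as higher, and GART (-0.13) and UMPS (-0.14) as lower, all Y483E over Y483F.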

How the data were processed

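RNA of 6 libraries was selected with poly-T beads, per the labels' protocols, which name directional and non-directional library making, so strandedness is not known. The submitters' processing notes name, without a role, DESeq, DESeq2, featureCounts 1.5.0-p3, StringTie 1.3.3b and HISAT2 2.0.5. No source used here gives the genome build. Among 58735 genes, 58690 had the position of GENCODE 29 gene models on GRCh38. The authors deposited FPKM for every gene. For 1652 genes the authors also deposited read counts, a signal made of counts divided by size factors, log2 fold changes and p-values. Whole reads were recovered from the deposited FPKM, gene length and library totals for 100% of values, within 0.01 of a read. They summed to between 17204498 and 23284592 per library, which limits genes with few reads. Floors of 3 reads cover counting error only.

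The members and gene lists were chosen with earlier results of these data known. The fit was limma 3.58.1 (trend, two-sided) on log2(FPKM + 1), for the 12833 genes averaging 1 FPKM or more, with Benjamini-Hochberg adjustment at 0.05. EdgeR 4.0.16 (quasi-likelihood, TMM) and DESeq2 1.42.0 were run on the recovered reads. Single levels were compared by exact permutation tests. Named genes are the members, TNS2, the 2 most abundant genes of each neighbouring list, any list gene past the threshold over 6 libraries, and paralogs sharing a name stem; others were named after their values were seen. Alternatives were other pseudocounts, filters, scaling and weights, the library number as a block or batch, and leaving out each library. Library numbers did not pair the libraries, and the fit carried no block.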

Additional observations from a re-analysis of the deposited data

How the results depend on the processing

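Limma called 0 genes over 6 libraries (1566 at an unadjusted p under 0.05) and again 0 without each library in turn (859 to 2844 unadjusted). The count was 1888 with array weights (1 member, DERA), 733 in the libraries numbered 4 and 5, 7 with edgeR, 14 without TMM, 671 with no edgeR filter, 142 with DESeq2, 169 with an edgeR batch term and 2454 with edgeR in the libraries numbered 4 and 5 (3 members). With the replicate block limma called 0 (1800 unadjusted), edgeR called 6, and 0 members were called by either. Correlations of deviations for same-numbered libraries were 0.056, 0.14 and -0.095, so the numbers do not pair the libraries, and of the Y483E libraries only replicate 1 correlated best with its own number. The interaction of line and number was called for 8 genes by limma, for 242 with no filter, 32 with a filter at a mean of 5 FPKM, 0 with no trend and 347 with edgeR, and for 0 members each time. The members' median difference, 0.072 over 6 libraries, was 0.035 without Y483E replicate 3, 0.041 without Y483F replicate 2 (5 members higher, 4 lower), at most 0.082 on leaving out another library, and -0.035 between the libraries numbered 1. Of 216 values for single members under alternatives, 198 kept their direction and, where there was a test, their side of the threshold. Another 14 turned direction and 4 passed the threshold. The values between the libraries numbered 1 have no test and were counted by direction alone, and those of PGD, PGLS, RPIA and TKT are among the 198. PGLS turned to 0.043 with limma and 0.040 with edgeR in the libraries numbered 4 and 5, to 0.00094 with DESeq2 and to 0.0084 with no edgeR filter. Between the libraries numbered 1, DERA (-0.073), PRPS1 (-0.014), PRPS2 (-0.049), RPE (-0.035) and TALDO1 (-0.034) were lower. Leaving out single libraries gave PGLS -0.055 to 0.055, PRPS2 -0.034 to 0.062, RPE -0.0093 to 0.079 and DERA 0.083 to 0.29. The causes were not tested. DERA had the fewest reads of the members in every library (424 to 669) and the widest SD within a line (0.147).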
